A study of Mus musculus with 6 samples.

Results

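Potassium channels set the resting potential of the pancreatic β cell and end its electrical bursts. The members described here are the genes of pore-forming and auxiliary potassium channel subunits, taken as every row of the deposited count table whose symbol starts with Kcn, then letters, then a digit, together with the sulfonylurea receptor genes Abcc8 and Abcc9. The table of 24421 genes held 99 such rows. Of these, 51 reached at least 1 CPM (a count scaled to a fixed library total) in 3 or more of the 6 libraries and are reported. The symbol rule also takes in Kcnq1ot1, a long noncoding RNA of the imprinted Kcnq1 locus, which is no channel subunit.

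The RNA came from whole mouse islets, the endocrine clusters of the pancreas, which hold insulin-producing β cells beside other hormone cells. The labels name 3 libraries as knockout of Dhps in β cells, with a floxed Dhps allele and MIP1-CreERT, and 3 as control, all on the C57BL/6J background. MIP1-CreERT is a Cre that the mouse insulin promoter expresses and tamoxifen activates, so recombination is directed at β cells. Dhps encodes deoxyhypusine synthase, the enzyme that begins hypusine formation on eIF5A, a translation factor. Age, tamoxifen dosing, whether the controls carried Cre, and the meaning of the HF prefix in the sample names were not given in the labels. Nor do the labels tie each replicate to its own animal, and all p-values therefore rest on the spread between these samples, which may be technical.

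In a β cell, glucose metabolism raises ATP and closes the K-ATP channel, the membrane depolarises, calcium enters through voltage-gated calcium channels, and insulin granules fuse. The K-ATP channel is built from a Kir6 pore and a sulfonylurea receptor. Voltage-gated (Kv) and calcium-activated potassium channels repolarise the membrane after each spike, and tandem-pore (K2P) leak channels hold a background conductance. Auxiliary subunits carry no pore and change how fast, or how many, channels open.

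Pore-forming subunits share a selectivity filter, a short loop that lets potassium pass and keeps sodium out, while auxiliary subunits lack it. The coding stretches below, from GENCODE M21 transcripts (GRCm38), show the filter in the pore-forming members that carry most of the results. Capitals mark the 5 filter codons and the flanking bases are 12 on each side. K2P subunits hold 2 such loops, and Kcnf1 keeps the filter although its product does not conduct alone.
Kcnf1: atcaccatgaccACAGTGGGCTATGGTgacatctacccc
Kcnh8: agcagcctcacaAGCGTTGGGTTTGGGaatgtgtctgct
Kcnk5, loop 1: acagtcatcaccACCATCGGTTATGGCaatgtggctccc
Kcnk5, loop 2: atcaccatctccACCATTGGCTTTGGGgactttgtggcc
Kcnk16, loop 1: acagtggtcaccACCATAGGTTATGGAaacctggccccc
The filter codons were also looked for in the auxiliary members Kcne4, Kcnip1 and Kcnmb2, and their coding sequences hold none.

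The libraries held 21027737 to 23249895 counts each. Dhps, the targeted gene, averaged 11.96 ± 0.689 CPM in the knockout-labelled libraries and 12.6 ± 0.704 CPM in the controls (SD, n = 3 each), and was not called different (edgeR adjusted p = 0.742). Its count spans the whole gene and comes from all islet cells, so directions below refer to libraries labelled knockout. Islet identity was evident in all libraries, with summed β cell markers at 394300 to 449120 CPM in the knockout-labelled libraries and 367940 to 496790 CPM in the controls. Ins1, Ins2 and Iapp make most of this sum, and 5 of the 12 β cell markers fell. Transcripts of other pancreatic cells were not even between the groups. The acinar list summed to 28156 to 32026 CPM in the knockout-labelled libraries and 1072 to 11816 CPM in the controls, and the macrophage list to 268 to 357 CPM in the knockout-labelled libraries and 155 to 162 CPM in the controls. Of the 18 acinar markers 1, Cpa3, had no count in any library, and 1 of the 16 tested rose. Delta, PP and epsilon cell markers summed to 17962 to 20634 CPM in the knockout-labelled libraries and 7387 to 14838 CPM in the controls. Endothelial markers summed to 514 to 606 CPM in the knockout-labelled libraries and 366 to 477 CPM in the controls, and Schwann cell markers to 14.5 to 18.8 CPM in the knockout-labelled libraries and 10.3 to 13.04 CPM in the controls, with no marker of these 3 lists at 0. The part of these cells in the results was not tested beyond the covariates named with the counts of calls. In whole islets, fewer cells of a type and less RNA per cell cannot be told apart.

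The level per length of transcript, in RPKM (CPM per kilobase of exon), ranks the members. Abcc8, which encodes the SUR1 receptor of the β cell K-ATP channel, stood first at 187 ± 25.7 RPKM in the knockout-labelled libraries and 198 ± 14.03 in the controls. Kcnk16, the K2P channel TALK-1 of islet cells, came next at 127 ± 15.8 RPKM in the knockout-labelled libraries and 119 ± 12.1 RPKM in the controls. The groups overlapped for these 2 genes. Kcnmb2, Kcnk1 and Kcnip1 followed, with mean levels over all libraries of 31.2, 24.0 and 23.8 RPKM. Kcnj11, the Kir6.2 pore that assembles with SUR1, had 10.7 ± 1.76 RPKM in the knockout-labelled libraries and 14.3 ± 0.743 RPKM in the controls. At the other end, 22 of the 51 members averaged less than 1 RPKM.

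**Figure D1:**
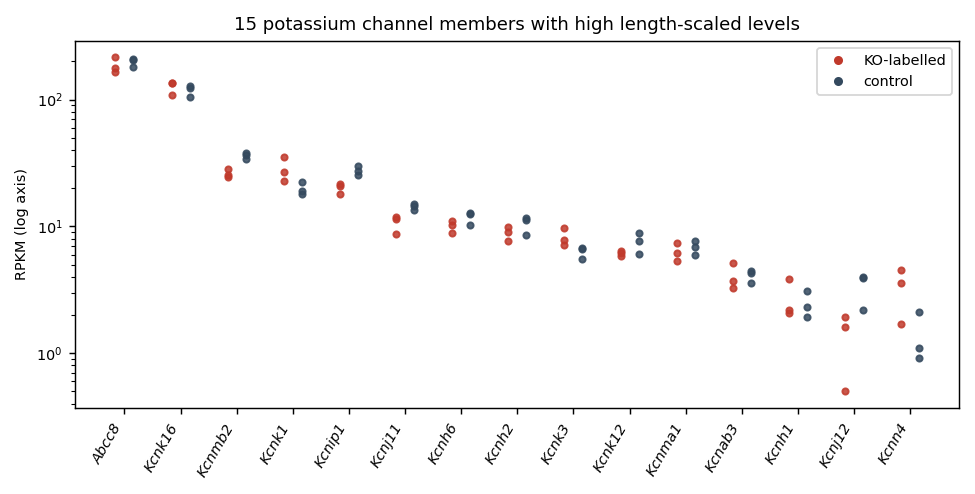
Length-scaled level (RPKM, log axis) of the 15 highest potassium channel members shown, 1 point per library, knockout-labelled in red and control in dark blue. Abcc8 and Kcnk16 lie far above the others, with overlapping groups, while the groups separate downward for Kcnmb2, Kcnip1 and Kcnj11 and upward for Kcnk1 and Kcnk3.

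Few of these genes differed between the groups past the threshold. Of the 51 members, 4 fell and 3 rose in the knockout-labelled libraries: Kcnf1, Kcnh8, Kcnmb2 and Kcnip1 were lower, and Kcne4, Kcnk5 and Kcnq1 were higher. Of the 5 members highest by RPKM, Kcnmb2 and Kcnip1 were called lower, while Abcc8, Kcnk16 and Kcnk1 were not called. Kcnma1, at a mean of 6.55 RPKM over all libraries, was not called either. Kcnf1, a modulatory Kv subunit, fell by 2.50 on the log2 scale, and Kcne4, an auxiliary subunit that restrains Kv channels, rose by 2.01. Values in parentheses are log2 fold changes, knockout-labelled over control, with their SE where one is given.

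A gene was called where edgeR's quasi-likelihood p, after Benjamini-Hochberg adjustment over 13736 genes, was under 0.05. The calls make 13.7% of the members, where 6.76% of all tested genes and 7.03% of genes that pass the same reporting level were called. For the lower direction the figure over all genes was 2.63%, and for the higher direction 4.14%. The median log2 fold change of the members was −0.04, beside 0.01 over all tested genes. Groups did not overlap for 18 of 51 members, close to the 32.1% of all tested genes. At an unadjusted p under 0.05 stood 18 members, beside 26.5% of all tested genes. Of the 51 members, 41 reached 1 CPM in all 6 libraries, and 5 of the 7 calls lie among them, without Kcne4 and Kcnh8. Leaving out 1 library changed these counts: without knockout-labelled replicate 1, 3, control 2 or control 3, only Kcnf1 fell, with 0, 1, 1 and 0 members that rose. Over all genes these fits called 64, 344, 99 and 216. With each library's acinar or macrophage score as a covariate, edgeR called 0 of the 51, with 4 and 7 at an unadjusted p under 0.05. Over all 13736 genes the same fits called 0, with 1383 and 1070 at an unadjusted p under 0.05. A score was the scaled mean of log2 CPM over a list's markers, with 0.5 CPM added. Both marker sums separate the groups, as do 14 of 16 tested acinar and 9 of 10 macrophage markers. These fits therefore cannot tell a score from the group label. With the acinar score the log2 fold changes were −2.34 for Kcnf1, −1.64 for Kcnh8, −0.58 for Kcnmb2, −0.30 for Kcnip1, 2.01 for Kcne4, 1.19 for Kcnq1 and 0.56 for Kcnk5, with adjusted p between 0.106 and 0.678. With the macrophage score they kept their signs, between −4.56 for Kcnf1 and 3.15 for Kcnq1, with adjusted p between 0.59 and 0.981.

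**Figure D2:**
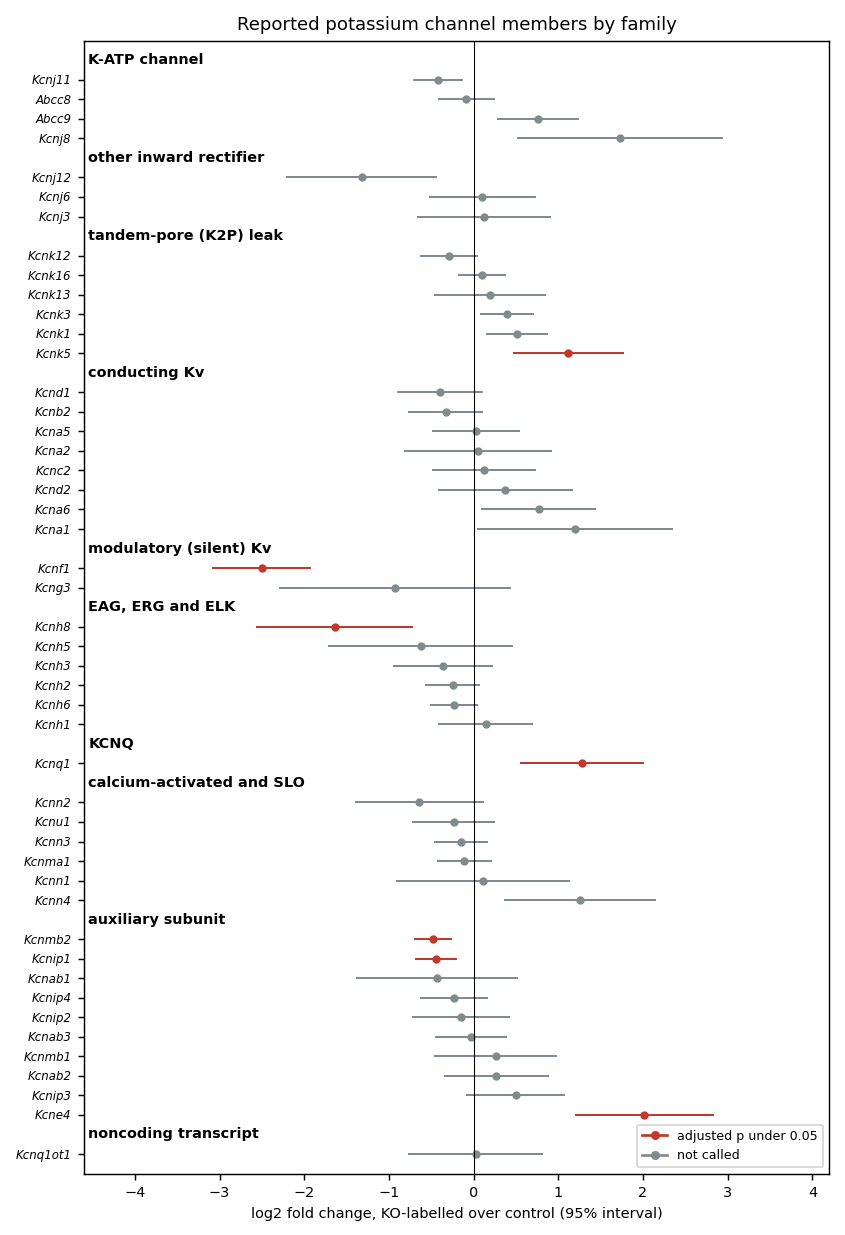
Log2 fold change of 47 of the 51 reported members, knockout-labelled over control, with its 95% interval, grouped by channel family. Red marks the 7 members past the threshold, from Kcnf1 at −2.50 to Kcne4 at 2.01, and most other intervals cross 0.

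Modulatory Kv subunits, which do not form channels alone and join conducting Kv subunits to alter their gating, held the largest fall. Kcnf1, which encodes Kv5.1, had 1.67, 2.397 and 1.22 CPM in the knockout-labelled libraries, against 10.8, 8.21 and 11.1 CPM in the controls. The highest knockout-labelled library lay well below the lowest control. Its log2 fold change was −2.50 ± 0.26 (SE, adjusted p = 0.00543), and it stayed past the threshold without each of the 6 libraries in turn, between −2.79 and −2.31. Kcnf1 is a single-exon gene on chromosome 12, minus strand, from 17172100 to 17176888 (mm10), so its count is read over 4789 bp.

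Kcng3, another modulatory subunit, was low, at 0.658 ± 0.503 CPM in the knockout-labelled libraries and 1.27 ± 0.293 CPM in the controls, and was not called (−0.93 ± 0.61, adjusted p = 0.365). The other 8 modulatory genes of the table did not reach the reporting level.

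**Figure D3:**
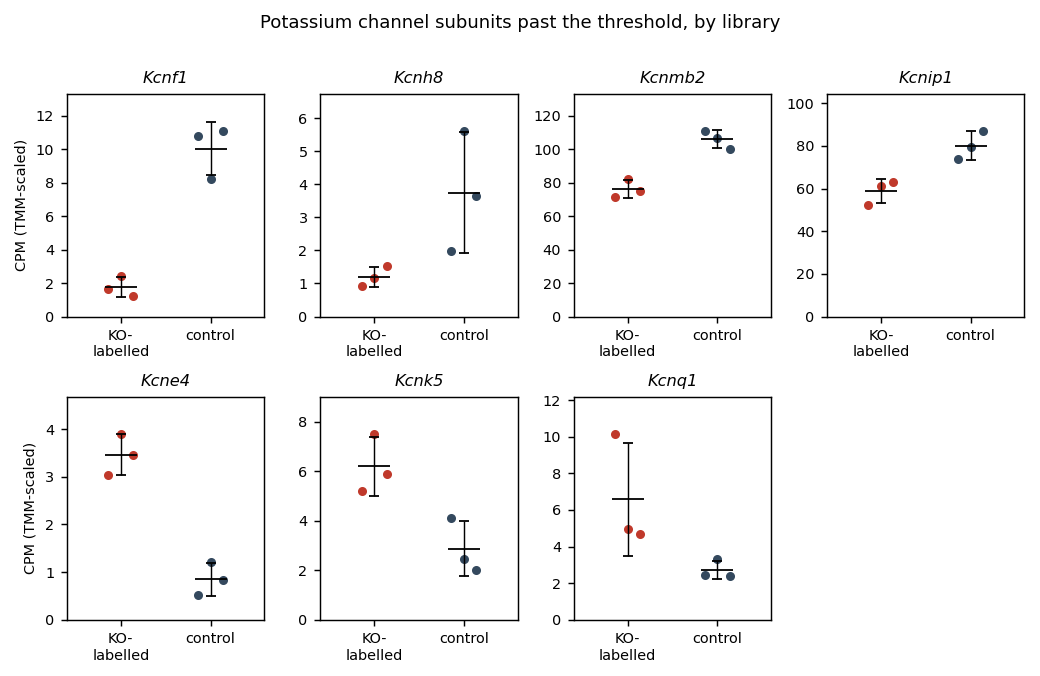
CPM by library for the 7 members past the threshold, knockout-labelled libraries in red to the left of controls in dark blue, with the mean and SD of 3 libraries. Kcnf1 shows the largest fold change of the 7, and the high mean of Kcnq1 rests on 1 knockout-labelled library at 10.2 CPM.

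Conducting Kv channels carry the repolarising current itself. The 10 that reached the reporting level gave 0 calls in edgeR and limma-voom and 1 in DESeq2, and 3 stood at an unadjusted p under 0.05. Kcna6 (0.77 ± 0.30, adjusted p = 0.139) and Kcna1 (1.19 ± 0.51, adjusted p = 0.172), both of the Shaker family, were among those 3. Kcna6 had 3.39, 3.95 and 2.74 CPM in the knockout-labelled libraries and 1.76, 2.58 and 1.58 CPM in the controls, with no overlap. Kcna1 had 4.004, 3.24 and 1.98 CPM in the knockout-labelled libraries and 1.06, 2.46 and 0.514 CPM in the controls, where the groups overlapped. Kcnd2 was the 1 member that was reported through the knockout-labelled libraries alone, with 1.19, 1.22 and 1.17 CPM there and 0.972, 0.875 and 0.910 CPM in the controls. Kcna2, Kcna5, Kcnb2, Kcnc2, Kcnd1 and Kcnd2 had log2 fold changes between −0.40 (Kcnd1) and 0.38 (Kcnd2). Just outside the reporting level, Kcna3 reached 1 CPM in 2 libraries, with 1.1001, 1.55 and 0.762 CPM in the knockout-labelled libraries and 0.972, 0.542 and 0.396 CPM in the controls.

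Genes of the EAG, ERG and ELK family, voltage-gated channels that shape slow repolarisation, had 1 of 6 that fell, and 5 of 6 fold changes were negative. Kcnh8, which encodes an ELK channel, had 0.924, 1.17 and 1.52 CPM in the knockout-labelled libraries, against 1.99, 5.63 and 3.64 CPM in the controls. The groups did not overlap, and the controls spread widely. Its log2 fold change of −1.64 ± 0.41 had an adjusted p of 0.0446. The call held without control 1 (−1.94, adjusted p = 0.0229) and was lost when any of the other 5 was left out, where the adjusted p lay between 0.0763 and 0.16. It was also lost in limma-voom (−1.56, adjusted p = 0.0728).

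The ERG channels, which carry a slowly deactivating current in β cells, were not called. Kcnh2 stood at 8.86 ± 1.15 RPKM in the knockout-labelled libraries and 10.5 ± 1.65 RPKM in the controls. Kcnh2 had 35.5, 41.8 and 46.2 CPM in the knockout-labelled libraries and 40.03, 51.9 and 54.3 CPM in the controls (−0.25 ± 0.14, adjusted p = 0.293). Kcnh6 had 25.5, 29.2 and 31.2 CPM in the knockout-labelled libraries and 29.1, 35.6 and 36.3 CPM in the controls (−0.23 ± 0.12, adjusted p = 0.25). The groups overlapped for both genes. Kcnh1 (0.14), Kcnh3 (−0.36) and Kcnh5 (−0.63) were not called either. Kcnh3 shares exons with Mcrs1, a gene with a mean of 477 counts, so its count is uncertain.

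The K-ATP subunits fell into a β cell pair and a vascular pair, and edgeR called 0 of 4, with 3 at an unadjusted p under 0.05. DESeq2 called Kcnj11 lower and Abcc9 and Kcnj8 higher, while limma-voom called none. Kcnj11 had 38.7, 37.4 and 28.2 CPM in the knockout-labelled libraries, against 43.9, 48.6 and 47.3 CPM in the controls. All 3 knockout-labelled values lay below all control values, with a log2 fold change of −0.42 ± 0.13 (adjusted p = 0.072). Its partner Abcc8 had 820.5, 885 and 1066 CPM in the knockout-labelled libraries and 903, 1010.1 and 1033 CPM in the controls. These groups overlapped (−0.09 ± 0.15, 95% interval −0.41 to 0.24, adjusted p = 0.742). Kcnj11 and Abcc8 are neighbours on chromosome 7, minus strand, at 46097123 to 46100764 and 46104523 to 46180033 (mm10). Kcnj11 per length was 0.0719, 0.0644 and 0.0404 of Abcc8 in the knockout-labelled libraries and 0.0741, 0.0733 and 0.0698 in the controls (exact two-sided permutation p = 0.2). With 3 against 3 libraries this test cannot give less than 0.1, so it cannot decide whether the ratio differs.

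The vascular pair is Kcnj8, the Kir6.1 pore, and Abcc9, the SUR2 receptor, which form the K-ATP channel of smooth muscle and pericytes. Abcc9 had 6.20, 7.57 and 7.52 CPM in the knockout-labelled libraries, against 4.58, 4.79 and 3.16 CPM in the controls, with no overlap (0.76 ± 0.21, adjusted p = 0.0571). Its exons overlap 5330439B14Rik, which averaged 13 counts where Abcc9 averaged 124, and reads of the 2 cannot be told apart. Kcnj8 had 2.82, 3.52 and 1.42 CPM in the knockout-labelled libraries, against 1.48, 0.417 and 0.475 CPM in the controls, where control 1 lay above knockout-labelled replicate 3 (1.73 ± 0.54, adjusted p = 0.0793). Without control 1, Kcnj8 passed at 2.52 (adjusted p = 0.0307). The 8 pericyte and smooth muscle markers, none at 0, summed to 94.5 to 123 CPM in the knockout-labelled libraries and 48.4 to 87.1 CPM in the controls. All 8 had a positive log2 fold change and 1 rose, and their part in the Kcnj8 and Abcc9 values was not tested.

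**Figure D4:**
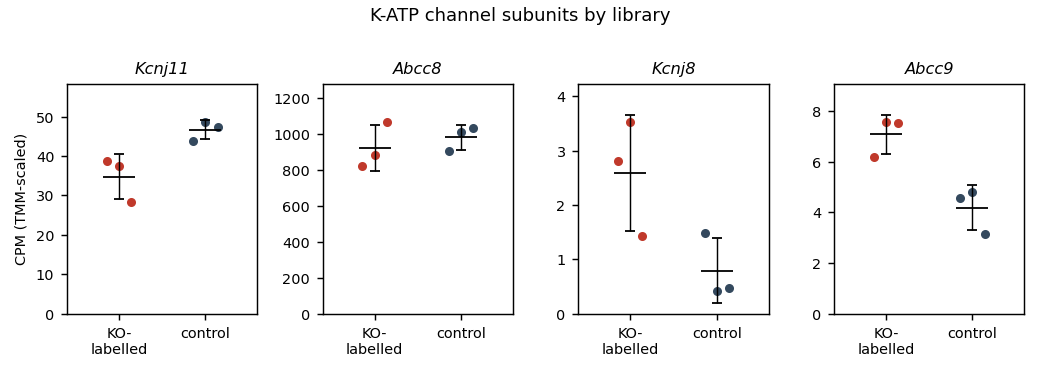
CPM by library for the 4 K-ATP subunits, knockout-labelled libraries in red to the left of controls in dark blue, with the mean and SD of 3 libraries. Kcnj11 is lower and Abcc9 higher in every knockout-labelled library, Abcc8 overlaps, and none of the 4 passed the edgeR threshold.

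Among the other inward rectifiers edgeR, DESeq2 and limma-voom called 0 of 3 reported genes, with 1 at an unadjusted p under 0.05. That gene was Kcnj12, the strong inward rectifier Kir2.2, with 7.83, 9.49 and 2.44 CPM in the knockout-labelled libraries, against 10.8, 19.3 and 19.6 CPM in the controls. The groups did not overlap (−1.32 ± 0.39, adjusted p = 0.069), and knockout-labelled replicate 3 was the lowest. Without control 1, Kcnj12 passed at −1.56 (adjusted p = 0.0497), and with no filter on low counts edgeR called it at −1.34 (adjusted p = 0.0259). Kcnj6, a subunit of channels opened by G proteins, had 4.31, 3.71 and 3.56 CPM in the knockout-labelled libraries and 2.45, 4.88 and 3.44 CPM in the controls (0.10 ± 0.28, adjusted p = 0.852). Kcnj3, a partner of Kcnj6 in those channels, had a log2 fold change of 0.12.

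Of 6 reported K2P leak channels 1 rose in edgeR and 5 had a positive fold change. DESeq2 called 2 higher and limma-voom 1. Kcnk5, which encodes the alkaline-activated channel TASK-2, had 5.19, 7.52 and 5.89 CPM in the knockout-labelled libraries, against 4.12, 2.46 and 2.02 CPM in the controls. The groups did not overlap, with control 1 closest to the knockout-labelled values. The log2 fold change was 1.12 ± 0.29 with an adjusted p of 0.049. Without control 1 it was 1.47 (adjusted p = 0.0235), and the call was lost when any of the other 5 libraries was left out (adjusted p 0.0933 to 0.159).

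Kcnk1, the weak inward rectifier TWIK-1, had 61.9, 52.6 and 80.7 CPM in the knockout-labelled libraries, against 52.1, 41.3 and 43.5 CPM in the controls. The lowest knockout-labelled value and the highest control differed by less than 1 CPM (0.51 ± 0.16, adjusted p = 0.0744). Kcnk1 passed in DESeq2 (0.51, adjusted p = 0.0233) and, in edgeR, without knockout-labelled replicate 2 (0.63, adjusted p = 0.0452). Kcnk3, the acid-sensitive TASK-1, had 27.4, 29.5 and 37.1 CPM in the knockout-labelled libraries and 25.7, 25.1 and 20.9 CPM in the controls (0.39 ± 0.14, adjusted p = 0.105). Kcnk16 had 119.7, 95.4 and 119 CPM in the knockout-labelled libraries and 92.4, 108 and 113 CPM in the controls. Those groups overlapped, with a 95% interval of −0.17 to 0.36 around a log2 fold change of 0.09 (adjusted p = 0.661). Kcnk12 (−0.29) and Kcnk13 (0.19), of the THIK group, were not called.

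Among the KCNQ channels, which carry slow, non-inactivating currents, 1 of 3 rose. Kcnq1, the Kv7.1 pore of epithelia and heart, had 10.2, 4.93 and 4.67 CPM in the knockout-labelled libraries, against 2.45, 3.29 and 2.41 CPM in the controls. Replicate 1 of the knockout-labelled libraries stood apart from the other 2, and the groups did not overlap. The log2 fold change of 1.28 ± 0.32 (adjusted p = 0.0463) was 0.82 without that library (adjusted p = 0.136). The call held without knockout-labelled replicate 2 (1.44, adjusted p = 0.0457) and was lost without each of the others, with adjusted p between 0.0539 and 0.136. It was also lost in limma-voom (1.21, adjusted p = 0.065). Kcnq1 shares exon sequence with Kcnq1ot1, and the count cannot separate the 2 transcripts. Kcnq1ot1 itself averaged 1.83 ± 0.531 CPM in the knockout-labelled libraries and 1.80 ± 0.409 CPM in the controls (0.02 ± 0.35, adjusted p = 0.978).

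Calcium-activated potassium channels answer calcium entry with repolarising current. Grouped with the SLO channel Kcnu1, they gave 0 calls of 6 in edgeR and limma-voom and 1 in DESeq2, with 1 at an unadjusted p under 0.05. Kcnma1, the BK channel pore, had 41.6, 48.3 and 58.2 CPM in the knockout-labelled libraries and 59.9, 46.2 and 53.9 CPM in the controls (−0.11 ± 0.14, adjusted p = 0.652). Kcnn3, an SK channel, had 9.24, 9.68 and 11.6 CPM in the knockout-labelled libraries and 11.3, 11.4 and 11.1 CPM in the controls (−0.15 ± 0.14, adjusted p = 0.522). For both genes the groups overlapped. Kcnn1 (0.11), Kcnn2 (−0.64) and Kcnu1 (−0.24) were not called.

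Kcnn4, the intermediate-conductance channel of epithelial and immune cells, had 9.20, 7.33 and 3.45 CPM in the knockout-labelled libraries, against 4.30, 2.25 and 1.86 CPM in the controls. The groups overlapped, since control 1 lay above knockout-labelled replicate 3 (1.26 ± 0.40, adjusted p = 0.081). It passed in DESeq2 (adjusted p = 0.0148) and without control 1 (1.70, adjusted p = 0.0422).

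Auxiliary subunits held 3 of the 7 calls: of 10 reported, 2 fell, 1 rose and 7 were not called. Kcnmb2, which encodes the β2 subunit that gives BK channels fast inactivation, had 71.5, 82.4 and 74.7 CPM in the knockout-labelled libraries, against 111, 107 and 100.2 CPM in the controls. The groups lay well apart, and the fall was modest at −0.48 ± 0.10 (adjusted p = 0.0269). It passed without knockout-labelled replicate 2 (−0.55, adjusted p = 0.029) and without control 1 (−0.44, adjusted p = 0.0469). Without each of the other 4 libraries it missed the threshold, at −0.43 to −0.53 with adjusted p between 0.0541 and 0.093. Kcnmb2 per length was 4.62, 4.58 and 3.45 times Kcnma1 in the knockout-labelled libraries and 4.98, 6.20 and 4.99 times in the controls (p = 0.1 in the exact permutation test, the lowest this design gives).

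Kcnip1, which encodes the calcium sensor KChIP1 that binds Kv4 channels, had 52.5, 61.1 and 63.0 CPM in the knockout-labelled libraries, against 73.7, 79.3 and 87.2 CPM in the controls. The groups did not overlap (−0.44 ± 0.11, adjusted p = 0.0404). The call held without control 1 (−0.50, adjusted p = 0.0412) and was lost when any of the other 5 was left out (adjusted p 0.0577 to 0.127). The other KChIP genes Kcnip2 (−0.15 ± 0.26), Kcnip3 (0.50 ± 0.26) and Kcnip4 (−0.23 ± 0.17) were not called. The remaining auxiliary genes, Kcnab1 (−0.43), Kcnab2 (0.27), Kcnab3 (−0.03) and Kcnmb1 (0.26), were not called. Of the Kv4 pores that KChIPs bind, Kcnd1 averaged 4.83 ± 1.29 CPM in the knockout-labelled libraries and 6.35 ± 0.269 CPM in the controls (−0.40 ± 0.22, adjusted p = 0.286).

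Kcne4, a single-pass subunit that suppresses Kv7.1 and other Kv currents, had 3.04, 3.9003 and 3.45 CPM in the knockout-labelled libraries, against 0.509, 1.21 and 0.831 CPM in the controls. These are 69, 83 and 68 counts in the knockout-labelled libraries, against 11, 29 and 21 counts in the controls. The groups lay far apart (2.01 ± 0.36, adjusted p = 0.0199). Kcne4 kept its call without each of 4 libraries and missed it without knockout-labelled replicate 1 (2.10, adjusted p = 0.0579) and without control 3 (1.98, adjusted p = 0.0611). It was reported through the 3 knockout-labelled libraries and 1 control, so the reporting level itself leaned on the group where it was high. The same holds for Kcnj8 and Kcna1, which were not called.

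Markers of other cell types were higher in the same libraries as Kcne4, Kcnk5 and Kcnq1. Duct markers, of which Cftr was at 0 in controls 1 and 3 and Onecut1 in knockout-labelled replicate 3 and control 3, summed to 986 to 1293 CPM in the knockout-labelled libraries and 621 to 796 CPM in the controls, and 2 of 8 tested rose. Stellate cell and fibroblast markers, 10 measured with none at 0, summed to 423 to 582 CPM in the knockout-labelled libraries and 146 to 386 CPM in the controls, and 5 of 10 rose. Of the macrophage markers given above, 5 of 10 rose and none was at 0. The part of duct, stellate cell and fibroblast transcripts in the 3 rises was not tested. With the macrophage score as a covariate the log2 fold changes were 1.15 for Kcne4, 0.18 for Kcnk5 and 3.15 for Kcnq1. That fit cannot tell the score from the group label. Beside the 4 falls, 5 of 12 β cell markers fell and 0 rose, while the summed β cell level overlapped between the groups.

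**Figure D5:**
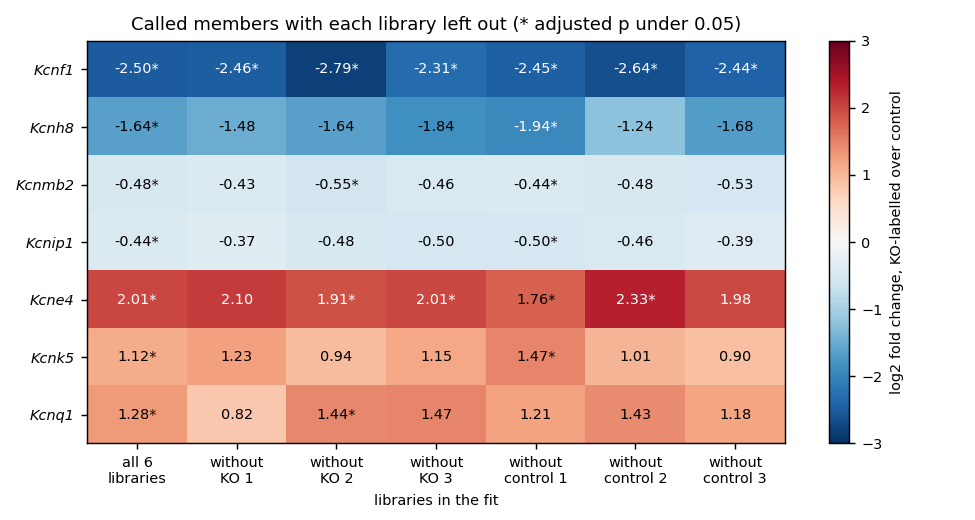
Log2 fold change of the 7 called members, knockout-labelled over control, in the fit of all 6 libraries and with each library left out in turn, with a star where the adjusted p is under 0.05. Kcnf1 keeps its star in every column and every member keeps its sign.

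The promoters of the members with the largest change in each direction follow as RefSeq gives them (GRCm38.p6), from 250 bases before the annotated start to 50 after it. Capitals mark matches, on either strand, to TGACG (part of a cAMP response element), CACGTG or CAGATG (E-boxes), TAATTA (a homeobox core) or TGTTTAC (a FOXA core).
Kcnf1, chr12:17176839-17177138, minus strand: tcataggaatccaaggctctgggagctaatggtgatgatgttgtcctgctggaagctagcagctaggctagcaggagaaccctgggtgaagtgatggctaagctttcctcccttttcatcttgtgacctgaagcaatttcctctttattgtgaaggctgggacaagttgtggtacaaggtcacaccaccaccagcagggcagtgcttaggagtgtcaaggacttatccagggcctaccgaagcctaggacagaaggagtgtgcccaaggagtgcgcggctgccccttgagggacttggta
Kcne4, chr1:78816661-78816960, plus strand: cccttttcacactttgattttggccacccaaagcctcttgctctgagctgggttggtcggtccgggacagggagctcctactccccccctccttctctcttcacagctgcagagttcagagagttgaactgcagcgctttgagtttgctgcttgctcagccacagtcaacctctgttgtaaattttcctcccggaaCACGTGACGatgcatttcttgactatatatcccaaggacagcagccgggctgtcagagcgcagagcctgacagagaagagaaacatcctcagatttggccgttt
The Kcnf1 window holds none of the 5 motifs. The Kcne4 window holds CACGTG and TGACG, which overlap each other. RefSeq promoters were matched for 36 of the 51 members, some with several starts, which gave 50 windows. CACGTG stood in 5 of these 50 windows and in 7.15% of all 32851 promoters of the table, and Kcnk5 was among those that hold it. TGACG stood in 11 of 50 and in 20.8% of all promoters, and Kcnh8 was among them. CAGATG stood in 12 of 50 and in 17.2% of all promoters, TAATTA in 0 of 50 and in 5.29%, and TGTTTAC in 0 of 50 and in 3.65%. A match describes the letters and does not show binding.

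Genes of potassium channel partners and other genes of β cell excitability were taken from the same fit, and some of the latter fell. Of 14 tested partners, which include the Kv4 partners Dpp6 and Dpp10, the Kv partner Amigo1 and the calmodulin genes, edgeR, DESeq2 and limma-voom called 0, with 1 at an unadjusted p under 0.05 in edgeR. That gene was Amigo1, with 39.8, 46.9 and 39.7 CPM in the knockout-labelled libraries and 43.8, 54.2 and 56.7 CPM in the controls (−0.29 ± 0.12, adjusted p = 0.163). The median of the list was −0.04. Over all tested genes edgeR called 6.76%, and 26.5% stood at an unadjusted p under 0.05. A list of 14 is too short for 0 calls to set it apart from that share.

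Of 35 other tested genes of β cell excitability, mostly calcium, sodium and cation channels, 5 fell, 1 rose and 29 were not called, with a median of −0.18. The calcium channel subunits Cacna1a (−0.88 ± 0.14, adjusted p = 0.0158) and Cacnb2 (−0.46 ± 0.11, adjusted p = 0.035) fell. So did the pacemaker channel Hcn4 (−1.04 ± 0.21, adjusted p = 0.0284), the glucose transporter Slc2a2 (−1.15 ± 0.24, adjusted p = 0.0284) and the cation channel Trpm5 (−1.59 ± 0.40, adjusted p = 0.0471). Slc2a2 is also 1 of the 5 β cell markers that fell. Ano1, a calcium-activated chloride channel also found in epithelia, rose (0.96 ± 0.20, adjusted p = 0.0292). In this list 17.1% of genes were called, beside 6.76% of all genes tested.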

How the data were processed

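RNA was measured in 6 libraries of isolated islets, 3 per group. Per the labels' protocols, 10 ng of total RNA was reverse transcribed from oligo-dT primers (SMART-Seq v4), and the cDNA was sheared and made into Ion Plus fragment libraries. This chemistry is not known to keep strand, so reads of overlapping genes cannot be separated. Kcnk3, Kcnip4 and Kcnn2 also overlap other genes, Gm9899, 5730480H06Rik and A330093E20Rik, which averaged 2.5, 1.67 and 0.167 counts. Per the submitters' processing notes, the tools were STAR 2.4.2a, featureCounts, Subread 1.5.0 and edgeR, with build mm10. The sources used here do not give the annotation or the multi-mapping setting. The deposited table holds whole-number counts per gene, not normalized, and a summed exon length in another unit (bp), per the file headers.

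Counts were tested in R 4.3.3 with edgeR 4.0.16 (TMM factors, filterByExpr, group as the only term, quasi-likelihood). Adjusted p-values are Benjamini-Hochberg values over 13736 genes, with a threshold of 0.05, and standard errors come from the fold change and the F value. CPM and RPKM in the text use TMM-scaled library sizes, whereas the reporting level uses plain totals. Overlapping exons on either strand were looked up in the deposited coordinates (GenomicRanges 1.54.1). Intervals are 95% and cover the fitted spread. Alternatives used DESeq2 1.42.0 and limma 3.58.1.

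The members, gene lists and alternatives were chosen with earlier results of these data known, so no list is independent evidence. Some members and sequences are not reported here, though all members stay in the fits and counts. Of the rest, values in every library are given for members past the threshold or at an unadjusted p under 0.05, K-ATP subunits, the 5 highest by RPKM and a set of textbook β cell channels. Pairs of libraries within a group differed beyond counting noise (chi-square per degree of freedom 11.1 or more), so none was counted as a repeat deposit. The fit was tested on simulated counts.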

Additional observations from a re-analysis of the deposited data

How the results depend on the processing

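Counts of members called lower (4) and higher (3) were the same, with the same genes, under RLE and upper-quartile factors, a filter of 1 CPM in 3 libraries, and with acinar markers and islet hormones left out. With no filter on low counts 7 fell and 5 rose, and DESeq2 called 6 lower and 7 higher. The calls gained in edgeR without the filter include Kcnj12 (adjusted p = 0.0259), Kcnj11 (0.046), Kcnn4 (0.0461) and Abcc9 (0.0475). By limma-voom 3 were lower and 2 higher, without Kcnh8 and Kcnq1. Of all genes, no filter, DESeq2 and limma-voom called 7.84%, 12.4% and 6.49%, beside 6.76% in the main fit. With the acinar or the macrophage score as a covariate edgeR called 0 lower and 0 higher, with 4 and 7 members at an unadjusted p under 0.05. Over all genes it called 0 in both fits, where the score and the group label cannot be told apart. The fold change of Kcnk5 was 0.56 with the acinar and 0.18 with the macrophage score, against 1.12 without either, and that of Kcnf1 was −2.34 and −4.56. With 1 library left out, the count lower ranged from 1 to 5 and the count higher from 0 to 4. Of all genes these fits called 0.459% to 6.91%. Kcnf1 was called in all 6 of these fits. Same-numbered samples did not vary together (correlations of −0.0371, −0.00688 and 0.0546). With 3 libraries per group this cannot settle whether the numbers pair the samples. With a replicate block in edgeR 5 fell and 2 rose, where 6.01% of all genes were called. In that fit Kcnk5 (adjusted p = 0.0612) and Kcnq1 (adjusted p = 0.0587) were not called and Kcnn4 was (adjusted p = 0.0324). No cause of these shifts was tested.

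No called member changed sign in any alternative. Members that did had an adjusted p of 0.527 or more in the fit concerned. With the replicate block these were Kcna2 (−0.0018) and Kcnn1 (−0.049), and in limma-voom Kcnn1 (−0.071). With the acinar covariate they were Kcna2 (−0.073), Kcnab1 (0.30), Kcnab2 (−0.11), Kcnk13 (−0.034) and Kcnmb1 (−0.10). With the macrophage covariate they were Abcc8 (0.029), Kcna6 (−0.079), Kcnab2 (−0.10), Kcnab3 (0.44), Kcnc2 (−0.24), Kcnip2 (1.05), Kcnip3 (−0.71), Kcnip4 (0.82), Kcnmb1 (−0.28), Kcnn3 (0.10) and Kcnq1ot1 (−2.03). With 1 library left out, the log2 fold change ranged from −0.42 to 0.32 for Kcna2, −0.15 to 0.12 for Kcna5, −0.24 to 0.10 for Kcnab3, −0.20 to 0.34 for Kcnh1, −0.35 to 0.11 for Kcnip2, −0.19 to 0.26 for Kcnj3, −0.11 to 0.37 for Kcnj6, −0.52 to 0.44 for Kcnn1 and −0.25 to 0.15 for Kcnq1ot1.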

Other observations

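Of the 48 members below the reporting level, 9 had no count in any library and 11 passed edgeR's own filter. None of those 11 was called. Kcnj5, a G protein-gated inward rectifier too low to be tested, was picked out after its values were seen. It had 20, 6 and 11 counts in the knockout-labelled libraries and 0, 1 and 0 counts in the controls, a ratio of 41.2 with a 95% counting interval of 6.95 to 1670. The interval is an exact binomial one on the summed counts, scaled by library size, and covers counting error only. Kcnk10, a K2P channel also named after its values were seen, had 19, 11 and 28 counts in the knockout-labelled libraries and 6, 3 and 6 counts in the controls (log2 fold change 2.09, edgeR adjusted p = 0.0565).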
